A study of Mus musculus with 10 samples.

Results

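The 10 genes described here encode the machinery by which a cell shows peptides from its own proteins on MHC class I molecules. They were chosen by name, as the rows of the deposited gene table called B2m, H2-K1, H2-D1, H2-T23, H2-Q7, Tap1, Tap2, Tapbp, Nlrc5 and Erap1. The choice was made with earlier results of these data known, so counts of members set beside shares of all genes are descriptions only. All 10 were found among the 17363 named genes, and all 10 passed the filter on low values that left 14473 genes for testing. They were measured by RNA sequencing in CD4+CD25- T cells sorted from mammary tumours of 23-week-old C57BL/6 mice. All the mice carried PyMT, a viral oncogene transgene that gives mammary tumours, and a floxed Tgfbr2 gene, which encodes a receptor chain for TGF-beta. The WT genotype (Tgfbr2fl/flPyMT) had no Cre, and the KO genotype (ThPOKCreTgfbr2fl/flPyMT) carried ThPOK-Cre, which deletes Tgfbr2 in the CD4 T cell lineage. The IL4-/- genotype (Il4-/-Tgfbr2fl/flPyMT) lacked Il4, the gene of the type 2 cytokine IL-4, in the whole animal, and IL4-/-KO (Il4-/-ThPOKCreTgfbr2fl/flPyMT) combined both changes. Each genotype had 2 replicates, and the RNA of each KO replicate was made into a library a further time (the repeat), for 10 libraries in all. Whether the replicates are separate mice is not said in the labels, and p-values here therefore reflect only sample-to-sample spread, part of which may be technical.

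Class I molecules consist of a heavy chain, the light chain beta-2-microglobulin and a peptide. Peptides are cut in the cytosol by the proteasome, carried into the endoplasmic reticulum by the TAP transporter, trimmed by the aminopeptidase ERAP1 and loaded with the help of tapasin. CD8 T cells read the loaded complex on classical heavy chains, and class I heavy chains also serve as ligands for natural killer cell receptors. Interferons raise the transcription of most of these genes through IRF and STAT factors, and NLRC5 is a transactivator that acts at class I promoters. T cells themselves express class I at high levels.

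Heavy chain genes and B2m have compact promoters, and the windows of B2m and the 4 heavy chain genes are shown because they carry motifs through which interferon and NF-kappaB factors are known to act on class I genes. The windows are from RefSeq on build GRCm38.p6, the build called mm10, and run from 250 bases before to 50 bases after the start of transcription. RefSeq windows were found for 8 of the 10 members, without Tap2 and Nlrc5. Capitals mark matches, on either strand, to the core of the kappaB element of the class I enhancer (GGGATTCCC) and to an element bound by interferon regulatory factors (AANNGAAA, where N is any base).
B2m, chr2:122147437-122147736, plus strand: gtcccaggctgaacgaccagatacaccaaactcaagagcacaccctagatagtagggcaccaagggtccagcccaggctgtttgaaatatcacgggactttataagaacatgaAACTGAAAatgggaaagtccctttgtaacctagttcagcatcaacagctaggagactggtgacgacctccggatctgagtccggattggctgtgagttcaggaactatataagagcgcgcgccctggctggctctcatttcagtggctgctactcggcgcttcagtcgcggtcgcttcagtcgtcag
H2-K1, chr17:34000298-34000597, minus strand: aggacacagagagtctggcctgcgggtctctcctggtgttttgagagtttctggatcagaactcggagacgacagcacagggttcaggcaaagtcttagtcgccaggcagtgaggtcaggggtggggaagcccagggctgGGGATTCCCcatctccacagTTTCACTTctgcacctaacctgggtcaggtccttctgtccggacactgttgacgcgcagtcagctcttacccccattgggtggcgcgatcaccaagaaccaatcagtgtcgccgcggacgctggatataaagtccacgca
H2-D1, chr17:35262844-35263143, plus strand: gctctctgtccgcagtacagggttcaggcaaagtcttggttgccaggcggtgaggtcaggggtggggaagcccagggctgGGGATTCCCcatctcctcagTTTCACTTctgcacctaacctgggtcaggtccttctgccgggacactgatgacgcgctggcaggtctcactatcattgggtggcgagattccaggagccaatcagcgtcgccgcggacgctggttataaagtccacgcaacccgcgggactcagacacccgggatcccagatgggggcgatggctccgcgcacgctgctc
H2-Q7, chr17:35438905-35439204, plus strand: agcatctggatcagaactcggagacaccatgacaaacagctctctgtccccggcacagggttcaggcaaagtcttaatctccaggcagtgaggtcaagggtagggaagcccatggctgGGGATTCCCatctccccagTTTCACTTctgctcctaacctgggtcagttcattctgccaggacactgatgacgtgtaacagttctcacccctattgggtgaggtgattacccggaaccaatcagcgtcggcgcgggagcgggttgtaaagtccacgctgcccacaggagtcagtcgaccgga
H2-T23, chr17:36032652-36032951, minus strand: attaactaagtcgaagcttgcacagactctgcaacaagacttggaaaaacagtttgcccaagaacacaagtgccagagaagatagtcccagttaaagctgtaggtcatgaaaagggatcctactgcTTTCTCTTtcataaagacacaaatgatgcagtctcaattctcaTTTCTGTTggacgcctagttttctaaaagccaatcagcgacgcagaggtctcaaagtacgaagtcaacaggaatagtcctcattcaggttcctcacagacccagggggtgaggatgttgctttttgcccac

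The kappaB letters stood in the windows of H2-K1, H2-D1 and H2-Q7, each time followed closely by the IRF letters, and in 0.353% of all 32851 RefSeq promoter windows. These 3 heavy chain genes descend from one ancestor, so their windows are not independent. The IRF element stood in the windows of all 4 heavy chain genes, B2m and Erap1, and in 23.9% of all windows. A CCAAT box, searched on both strands, was present in every member window except that of Erap1, and in 37.4% of all windows. The letters TGACG, also searched on both strands and the core of the X2 box on which NLRC5 acts with other factors, stood in the windows of B2m, H2-K1, H2-D1, H2-Q7 and Tap1, and in 20.8% of all windows. A match is a description of the sequence and does not show that a factor bound there in these cells.

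Among the members, 7 lie in the MHC on chromosome 17 of mm10: Tapbp (33915899 to 33929292), H2-K1 (33996017 to 34000347), Tap1 (34187553 to 34197225), Tap2 (34203527 to 34216321), H2-D1 (35262730 to 35267499), H2-Q7 (35439155 to 35443773) and H2-T23 (36029773 to 36032855). B2m lies on chromosome 2 (122147686 to 122153083), Nlrc5 on chromosome 8 (94434356 to 94527272) and Erap1 on chromosome 13 (74639568 to 74693201). Some values can include reads of neighbours, since the use of strand in counting was not given in the sources used here. Exons of Tap1 overlap those of Psmb9 on the opposite strand, exons of Erap1 overlap those of Cast on the opposite strand, and exons of Tapbp overlap those of Zbtb22. Exons of Tap2, Nlrc5 and Tapbp also overlap those of non-coding genes on the opposite strand. H2-Q7 has near-identical neighbours in the Q region, and H2-Q6, one of them, had no row in the table, so the H2-Q7 value is uncertain as a measure of that gene alone.

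Depth was high for these genes. Libraries held 17121030 to 33802781 reads, and the lowest member value in any library was 1383 normalized counts, for Erap1 in the repeat library of KO replicate 2. Libraries fell into a shallower set (WT and the first KO libraries, up to 18479090 reads) and a deeper set (the KO repeats, IL4-/- and IL4-/-KO, from 28003231 reads). The T cell genes Cd3e (13302 to 33606 normalized counts) and Cd4 (12165 to 40172) were high in every library. Markers of other cells were also detected. The summed epithelial markers (9 of 9 found, Krt5 at 0 in some libraries) came to 24736 and 162888 in WT, 57580 to 126569 in KO, 19118 and 45289 in IL4-/- and 13435 and 28021 in IL4-/-KO. The summed macrophage markers (10 of 10 found) were 57990 in IL4-/- replicate 2 and 2379 to 11559 elsewhere. CD8 T cell and fibroblast sums stayed at or below 1126 in every library, and their defining genes Cd8a and Col1a1 were at 0 in some. Tgfbr2 itself had 5803 to 9442 normalized counts in WT, KO and IL4-/-KO and 13816 and 12544 in IL4-/-, and Il4 had 40 to 99 in the Il4-deficient genotypes and 107 to 523 in the others. Counts of a floxed or disrupted gene include reads outside the deleted part, so these totals check little. In bulk samples, a change in the number of cells of a type and a change in RNA per cell cannot be told apart.

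Classical heavy chain and light chain genes were among the most abundant messages of these cells. H2-K1 ranked between places 2 and 5 among all genes in every library, and the 10 members together took 1.68% and 1.61% of all normalized counts in the WT replicates. In KO they took 2.28% and 2.14% in the first libraries and 2.20% and 2.30% in their repeats. The share was 2.11% and 1.42% in IL4-/- and 2.11% and 1.78% in IL4-/-KO. The 4 KO libraries were thus above all others, and IL4-/- replicate 2 was the lowest. B2m, H2-K1 and H2-D1 made up 74.2% to 83.4% of the members' sum, so this share and the ratios to T cell markers given later rest mostly on these 3 genes. Nlrc5 and Erap1 ranked between places 347 and 3904. The 95% Wilson interval of each share reached at most 0.00705 percentage points to either side, which covers counting error only, since reads amplified without molecular identifiers are not independent molecules.

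Per kilobase of merged exon length, which allows genes to be compared, B2m was the most abundant member, with a median of 131591 normalized counts per kilobase over the 8 replicates (range 75392 to 179553). The classical heavy chains followed, H2-K1 with 43318 (31835 to 63399) and H2-D1 with 42148 (29871 to 65615), and did not differ beyond their spread. Then came the non-classical heavy chain H2-T23 with 5508, the tapasin gene Tapbp with 4792 and the non-classical H2-Q7 with 4556. Their ranges overlapped each other and lay below the lowest classical value. The transporter subunits Tap2, with 3108 (1805 to 4242), and Tap1, with 2411 (1413 to 3524), overlapped each other and the range of H2-Q7. Nlrc5, with 633 (305 to 1120), and Erap1, with 531 (232 to 774), were the least abundant, also overlapping, and both lay below every Tap1 value.

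B2m, the light chain that every class I molecule needs, measured 115908 and 71513 normalized counts in the WT replicates. The first libraries of KO gave 148351 and 88395, and their repeats 127567 and 41280. IL4-/- had 145750 and 70875, and IL4-/-KO had 154415 and 110429. The genotypes overlapped throughout, and replicates of one genotype differed by up to 1.09 on the log2 scale. The low value of 41280 came from the same RNA as the 88395, a log2 difference of -1.10 between libraries of one RNA, while the other members differed by -0.53 (Erap1) to 0.90 (H2-Q7) between these libraries.

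H2-K1 encodes a classical heavy chain and had 97729 and 116167 normalized counts in the WT pair. Its KO values were 154895 and 146257 in the first libraries and 171864 and 226275 in their repeats. It had 138368 and 93532 in IL4-/- and 139054 and 115811 in IL4-/-KO. H2-D1, the other classical heavy chain of this strain, had 102003 and 125715 in WT, 158857 and 153214 in KO first libraries and 135334 and 185228 in their repeats. It had 105852 and 77038 in IL4-/- and 111545 and 95857 in IL4-/-KO. For both genes every KO library lay above both WT libraries, and the other 3 genotypes overlapped for H2-K1. For H2-D1, IL4-/-KO replicates fell between and below the WT values.

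H2-T23 encodes Qa-1, which presents to CD8 T cells and to the CD94-NKG2A receptor. It had 13782 and 9173 normalized counts in the WT pair, 22269 and 16543 in KO first libraries, 25262 and 28508 in their repeats, 16749 and 11555 in IL4-/- and 16974 and 15075 in IL4-/-KO. H2-Q7, which encodes the Qa-2 antigen, had 11597 and 11515 in WT, 23501 and 21985 in KO first libraries, 25415 and 40911 in their repeats, 25248 and 14403 in IL4-/- and 26195 and 13959 in IL4-/-KO. WT was the lowest genotype for H2-Q7, below every other library. For H2-T23 the WT and IL4-/- ranges overlapped, and both KO replicates, as means of their libraries, lay above all others.

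Tap1 and Tap2 encode the subunits of the peptide transporter. Tap1 had 7739 and 12723 normalized counts in the WT pair, 15979 and 15342 in KO first libraries, 18891 and 23254 in their repeats, 13334 and 8593 in IL4-/- and 13767 and 13073 in IL4-/-KO. Tap2 had 6826 and 12672 in WT, 15608 and 12745 in KO first libraries, 15461 and 19332 in their repeats, 11783 and 8465 in IL4-/- and 10634 and 11719 in IL4-/-KO. KO was the highest genotype for both, although the first library of KO replicate 2 was only just above the second WT value for Tap2. Tapbp encodes tapasin, which holds the empty class I molecule at the transporter. It had 17502 and 20655 in WT, 26897 and 22176 in KO first libraries, 28499 and 38366 in their repeats, 17271 and 16204 in IL4-/- and 15731 and 16994 in IL4-/-KO. Its KO libraries lay above all others, and both Il4-deficient genotypes lay below both WT values.

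Nlrc5 had 2588 and 8217 normalized counts in the WT pair, 4860 and 4829 in KO first libraries, 4658 and 5421 in their repeats, 9508 and 5623 in IL4-/- and 8276 and 4893 in IL4-/-KO. The KO libraries were close together between the WT values, which were 1.67 apart on the log2 scale, the largest gap within a genotype among the members. Erap1 had 2787 and 4216 in WT, 3734 and 1993 in KO first libraries, 3302 and 1383 in their repeats, 4341 and 3323 in IL4-/- and 5636 and 4397 in IL4-/-KO. Its lowest values were both libraries of KO replicate 2, and IL4-/-KO lay above every KO library.

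**Figure D1:**
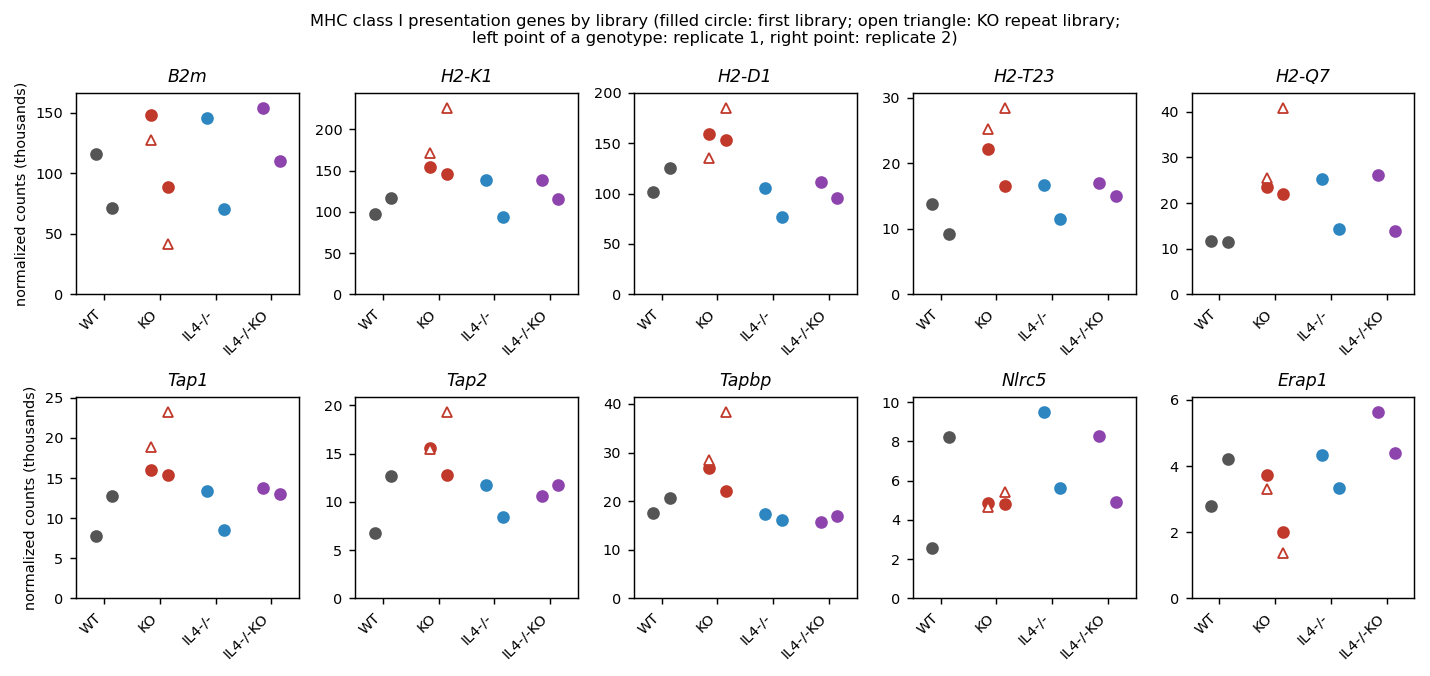
Normalized counts (axis in units of 1000) of each member gene in every library by genotype, with filled circles for first libraries and open triangles for the KO repeats; the left point of a genotype is replicate 1. For H2-K1, H2-D1, H2-T23, H2-Q7, Tap1, Tap2 and Tapbp every KO library lies above both WT libraries, while B2m, Nlrc5 and Erap1 overlap between WT and KO.

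The comparison of KO with WT addressed Tgfbr2 deletion where Il4 is intact. In 7 of the 10 members both KO replicates had higher values than either WT replicate: the heavy chains H2-K1, H2-D1, H2-T23 and H2-Q7, and the loading genes Tap1, Tap2 and Tapbp. Of all 14473 genes, 17.5% were higher without overlap in the same way. With the 4 KO libraries taken singly the same 7 members stayed without overlap, against 10% of all genes. No member passed the test (limma with Benjamini-Hochberg adjustment over all genes, threshold 0.05), and 0.00691% of all genes did. At an unadjusted p under 0.05 there were 3 higher members and 0 lower, H2-T23, H2-Q7 and Tap1, against 5.19% of all genes higher and 6.9% lower. edgeR called 0 of the 10 members and 0% of all genes, and DESeq2 called 0 of the 10 members and 3.64% of all genes.

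H2-Q7 had the largest difference, a log2 fold change of 1.26 ± 0.44 (SE, 2 replicates in each genotype, adjusted p = 0.367 by limma). H2-T23 followed with 1.04 ± 0.35 (limma adjusted p = 0.367), or means of 11478 ± 3259 normalized counts in the WT pair and 23145 ± 877 in KO (SD, n = 2). Tap1 had a log2 fold change of 0.89 ± 0.37, Tap2 of 0.76 ± 0.37, H2-K1 of 0.71 ± 0.55, Tapbp of 0.61 ± 0.31 and H2-D1 of 0.48 ± 0.53 (limma adjusted p from 0.403 to 0.756). B2m and Nlrc5 had values near 0, at 0.05 ± 0.65 and 0.10 ± 0.56. Those estimates were loose, with 95% intervals of -1.46 to 1.57 for B2m and -1.20 to 1.40 for Nlrc5. Erap1 was the one member with a negative value, -0.49 ± 0.41. The median over the members was 0.66, against -0.07 over all genes tested, and 9 of 10 were positive, against 46.7% of all genes.

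The size of these differences depended on which KO libraries and which WT replicates were used. With the first KO libraries alone, which belong to the same depth set as WT, the median of the members was 0.48, with 0.98 for H2-Q7, 0.77 for H2-T23 and 0.36 for Tapbp. With the repeats alone the median was 0.84, with 1.48, 1.25 and 0.80 for those genes, and B2m turned to -0.33. With the first libraries alone, 1 member had an unadjusted p under 0.05. Without WT replicate 1 the median was 0.45, with 0.32 for Tap2 and 0.53 for Tap1, but 1.33 for H2-T23. Without WT replicate 2 it was 0.79. The summed epithelial markers were 162888 in WT replicate 1, 24736 in WT replicate 2 and 57580 to 126569 in KO. Without KO replicate 2 the number of members with an unadjusted p under 0.05 was 0, and all 10 were higher. T cell marker RNA moved with the members: the sum of the 10 T cell markers was 113784 and 174102 normalized counts in the WT pair and 204696 to 237699 in KO. Divided by that sum, the members' total was 3.33 and 2.25 in WT, 2.42 and 2.36 in KO first libraries and 2.43 and 2.98 in their repeats, so that WT and KO overlapped on this scale. The summed neutrophil markers (5 of 5 found, S100a9 and Csf3r at 0 in some libraries) were 356 to 6083 in KO and at most 510 in WT, and the summed class II genes (7 of 7 found) 10871 to 40928 and 6034 to 25316. The summed endothelial markers (3 of 4 found) were higher without overlap, with 1866 to 2582 in KO and 1190 and 1325 in WT. This sum was nearly all Pecam1, with Kdr at most 58 and Vwf at most 33 in any library and both at 0 in some. The summed CD8 T cell markers (2 of 2) were lower, with 234 to 524 against 694 and 1126. Cd8a was lower without overlap (25 to 133 in KO, 227 and 783 in WT), while Cd8b1 overlapped (177 to 462 in KO, 468 and 343 in WT). The summed NK cell markers (2 of 3 found) were 162 to 1069 in KO and 86 and 176 in WT, nearly all from Klrb1c. The other one found, Ncr1, was at most 59 in KO and 8 in WT and at 0 in some libraries of each. The part of these cells' RNA in the members' values was not tested.

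On the Il4-deficient background the question was the same. Comparing IL4-/-KO with IL4-/-, the median log2 fold change was 0.18, against -0.03 over all genes, with 8 members positive and 2 negative. Only Erap1 had higher values in both IL4-/-KO replicates than in either IL4-/- replicate (log2 fold change 0.39 ± 0.41), where 16.8% of all genes did. No member was lower without overlap, where 16.2% of all genes were. No member passed limma, nor did any other gene (0%), and 0 members had an unadjusted p under 0.05, against 3.25% of all genes. DESeq2 called 0.352% of all genes and no member, and edgeR called none. H2-Q7 was at 0.00 ± 0.44, H2-T23 at 0.20 ± 0.35, Tap1 at 0.33 ± 0.37 and Tapbp at -0.03 ± 0.31. The 95% interval for H2-Q7 ran from -1.01 to 1.01, so a difference of up to about 2-fold either way was not resolved.

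IL4-/- replicate 2 set the direction of this comparison. It was the lower of its genotype for each of the 10 members and the library with the most macrophage RNA, with 28932 normalized counts of Lyz2 against 856 to 4934 elsewhere, and a T cell marker sum of 111940 against 182492 in replicate 1. Without it, 8 of 10 members were lower in IL4-/-KO, with a median of -0.08. Without IL4-/- replicate 1, all 10 were higher, with a median of 0.43. The members' total divided by the T cell marker sum was 2.68 and 2.77 in IL4-/- and 2.76 and 2.2 in IL4-/-KO. What the other cells' RNA contributed to these values was not tested.

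The effects of Tgfbr2 deletion on the 2 backgrounds were not shown to differ. In the test of the interaction, with negative values for a smaller effect in Il4-deficient mice, the members had a median of -0.56, against 0.00 over all genes. It was -0.18 without WT replicate 1, -0.26 without IL4-/- replicate 1 and -0.34 with the first KO libraries alone, and reached -0.76 without IL4-/- replicate 2. H2-Q7 had -1.26 ± 0.62 and H2-T23 had -0.84 ± 0.50, while Erap1 had 0.88 ± 0.59 (limma adjusted p = 0.988 for each). No member had an unadjusted p under 0.05, where 3.52% of all genes did, and no gene passed limma or edgeR (0%). By DESeq2, 0.242% of all genes and no member passed. Without KO replicate 1, IL4-/- replicate 2 or IL4-/-KO replicate 1, 1 member had an unadjusted p under 0.05. Over both backgrounds together, with 4 replicates on each side, H2-T23 (log2 fold change 0.62 ± 0.25) and Tap1 (0.61 ± 0.26) had an unadjusted p under 0.05 and were higher, against 9.87% of all genes, 4.66% higher and 5.21% lower. No member passed after adjustment (0.0207% of all genes did), and no member was without overlap over the 4 against 4 replicates, where 2.98% of all genes were higher and 2% lower. edgeR called 0.0138% and DESeq2 2.29% of all genes, and neither called a member. The median of the members was 0.39, against -0.08 over all genes. Without KO replicate 1, KO replicate 2, IL4-/- replicate 2 or IL4-/-KO replicate 1, or with the first KO libraries alone, 0 members had an unadjusted p under 0.05.

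**Figure D2:**
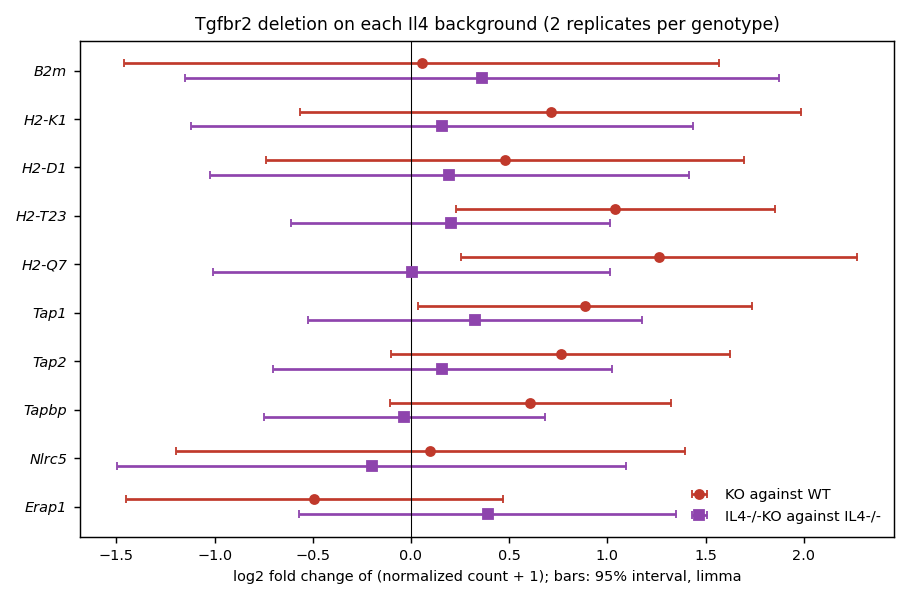
Log2 fold change of each member gene with its 95% interval (limma, 2 replicates per genotype) for KO against WT (circles) and IL4-/-KO against IL4-/- (squares). The KO against WT intervals of H2-T23, H2-Q7 and Tap1 lie above 0, before adjustment for the number of genes tested, and every interval of the other comparison includes 0.

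Il4 deficiency was read with Tgfbr2 intact and with Tgfbr2 deleted. In IL4-/- against WT, H2-Q7 was the one member higher without overlap (log2 fold change 0.72 ± 0.44, 14.7% of all genes higher in this way) and Tapbp the one lower (-0.18 ± 0.31, 14.6% of all genes). The median of the members was 0.13, against 0.01 over all genes. No member had an unadjusted p under 0.05 (4.08% of all genes) and none passed limma (0% of all genes, adjusted p = 1 for each member). edgeR called 0% and DESeq2 0.214% of all genes, and neither called a member. WT lay in the shallower and IL4-/- in the deeper library set, so genotype and library set cannot be told apart here. The direction also rested on single replicates: without WT replicate 1 or without IL4-/- replicate 1 the median was -0.16, with 3 members higher and 7 lower, while without WT replicate 2 it was 0.33 and without IL4-/- replicate 2 it was 0.40.

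In IL4-/-KO against KO, 6 members were lower without overlap, where 23.3% of all genes were: H2-K1, H2-D1, H2-T23, Tap1, Tap2 and Tapbp. Erap1 was higher without overlap, as were 22.8% of all genes. This comparison shares its KO samples with KO against WT, so the 2 sets of values are not separate evidence. Tapbp had the largest negative value, with 28985 ± 1820 normalized counts in KO and 16363 ± 893 in IL4-/-KO (SD, n = 2) and a log2 fold change of -0.82 ± 0.31 (limma adjusted p = 0.384). DESeq2 called Tapbp alone among the members (log2 fold change -0.90, DESeq2 adjusted p = 0.0373), with 2.72% of all genes called, while limma and edgeR called 0% of all genes. Erap1 had 1.03 ± 0.41 (limma adjusted p = 0.408), and Tapbp and Erap1 were the members with an unadjusted p under 0.05, against 11.7% of all genes (3.13% lower, as Tapbp, and 8.53% higher, as Erap1). The median of the members was -0.48, against -0.07 over all genes. Within the deeper library set, with the KO repeats alone, it was -0.63, with -1.02 for Tapbp and 1.22 for Erap1. With the first KO libraries alone it was -0.25, with -0.58 and 0.87, and 0 members had an unadjusted p under 0.05. That number was also 0 without KO replicate 2, IL4-/-KO replicate 1 or IL4-/-KO replicate 2. With the libraries taken singly, H2-T23 overlapped, which left 5 members lower (12.4% of all genes) and Erap1 higher (16.2%). Marker sums were lower without overlap too: the T cell sum was 182206 and 184136 in IL4-/-KO against 204696 to 237699 in KO, and the epithelial sum 13435 and 28021 against 57580 to 126569. Divided by the T cell sum, the members' total overlapped, with 2.76 and 2.2 in IL4-/-KO and 2.36 to 2.98 in KO. The part of these cells' RNA in the members' values was not tested.

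Over both Tgfbr2 states, Tapbp was the only member without overlap between the 4 Il4-deficient and the 4 other replicates, and lower (log2 fold change -0.50 ± 0.22, limma adjusted p = 0.437), as were 3.18% of all genes. None was higher without overlap, where 2.97% of all genes were. No member had an unadjusted p under 0.05, where 11.5% of all genes did, and none passed limma (0% of all genes). edgeR called 0% and DESeq2 2.27% of all genes, and neither called a member. All Il4-deficient libraries lay in the deeper library set, while WT and the first KO libraries lay in the shallower one. Genotype and library set are therefore partly mixed in this comparison, and cannot be told apart with the first KO libraries alone. The median of the members was -0.14, against -0.02 over all genes. It was 0.02 without WT replicate 2, 0.00 without IL4-/- replicate 2, -0.28 without IL4-/- replicate 1, -0.09 without IL4-/-KO replicate 2, -0.02 with the first KO libraries alone and -0.24 with the repeats alone. An unadjusted p under 0.05 was reached by 1 member without WT replicate 1, without KO replicate 1, with the repeats alone or by edgeR, and by 2 members without WT replicate 2 or by DESeq2.

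The ratio of the classical heavy chains separated by library set, also between libraries of one RNA. H2-K1 over H2-D1, in normalized counts, was 0.96 and 0.92 in WT and 0.98 and 0.95 in KO first libraries. It was 1.27 and 1.22 in the KO repeats, 1.31 and 1.21 in IL4-/- and 1.25 and 1.21 in IL4-/-KO. The sets did not overlap, and the KO values differed between libraries made from one RNA, in both replicates. H2-D1 had a log2 difference between the repeat and the first library of -0.23 in KO replicate 1 and 0.27 in replicate 2, and H2-K1 one of 0.15 and 0.63. Tap1 over Tap2, by contrast, ranged from 1.0 to 1.29 without such a split.

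**Figure D3:**
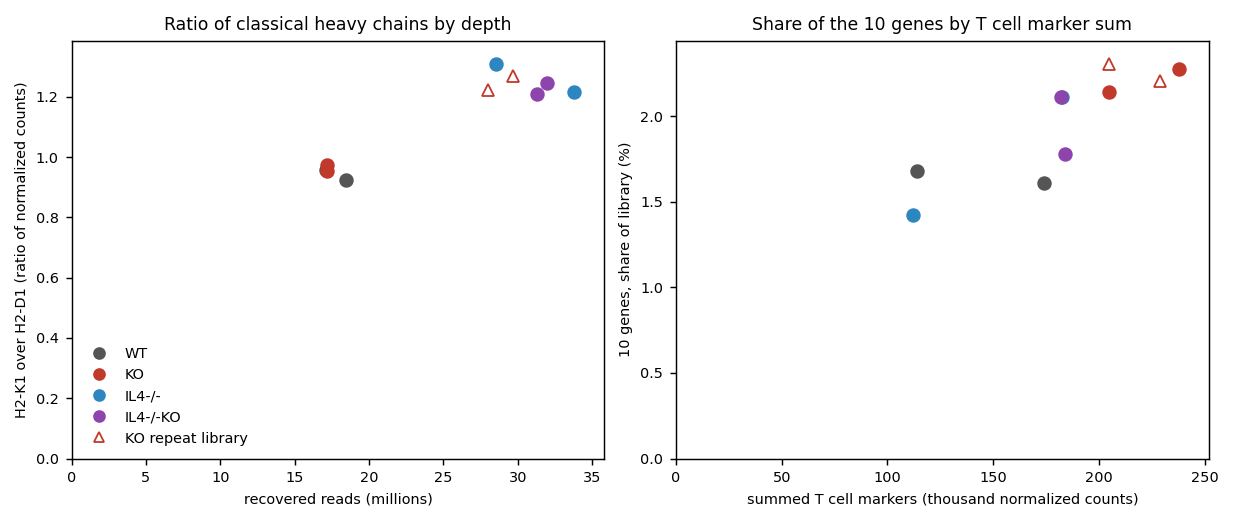
Left, H2-K1 over H2-D1 (ratio of normalized counts) against the recovered reads of each library: the 4 shallower libraries lie at 0.92 to 0.98 and the 6 deeper ones at 1.21 to 1.31. Right, the share of each library taken by the 10 member genes against the summed T cell markers: the 4 KO libraries have the highest shares, 2.14% to 2.30%, and also the highest marker sums. Points of near-equal value lie over each other.

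Members did not vary as one block. Over the 8 replicates, Pearson correlations of log2 values between pairs of members had a median of 0.46 over 45 pairs, and 33 were above 0. Tap1 went with Tap2 (r = 0.97) and with H2-K1 (0.95), and H2-D1 with Tapbp (0.89). Erap1 ran against Tapbp (-0.67) and H2-D1 (-0.45), and B2m had correlations of -0.33 to 0.60 with the others. These are descriptions over 8 points that share library sets and other cells' RNA. Genes whose pattern was most like the mean of the members, of 11813 other genes, were Stx5a (r = 0.96), a vesicle fusion gene, Gstp3 (0.95), Gsdmd (0.94), which encodes the pore-forming gasdermin D, 2210011C24Rik (0.94) and Mybl2 (0.92), a cell cycle transcription factor.

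The rest of the pathway was read from a list of 25 genes, of which 24 were found and 22 tested: further heavy chains, loading chaperones, immunoproteasome subunits, the peptidase Lnpep and promoter-binding factors. In KO against WT 16 were higher and 6 lower, where 46.7% of all genes were higher. The median log2 fold change of the list was 0.32, and none passed limma. There were 7 higher without overlap and none lower, against 17.5% and 20.1% of all genes. Those with the smallest p were Psmb9 (log2 fold change 1.02 ± 0.36), an immunoproteasome subunit whose exons overlap Tap1, the heavy chain gene H2-Q4 (1.53 ± 0.58) and Psmb10 (0.90 ± 0.36), a further immunoproteasome subunit. The H2-Q4 value came from the repeats: the first KO libraries had 562 and 428 normalized counts, overlapping the 495 and 177 of WT, while their repeats had 1227 and 1218. Psmb9 had 4770 and 5100 normalized counts in the WT pair, 10025 and 8453 in KO first libraries, 11302 and 10240 in their repeats, 6382 and 3207 in IL4-/- and 8312 and 7183 in IL4-/-KO. Its Tgfbr2-deleted replicates lay above the others on both backgrounds. Over both backgrounds it had 0.89 ± 0.26 (limma adjusted p = 0.389), ahead of H2-Q10 (1.40 ± 0.46) and Psmb10 (0.61 ± 0.25).

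On the Il4-deficient background, 15 pathway genes were higher and 7 lower in IL4-/-KO, with a median of 0.26 and none past the threshold. Of all genes, 47.6% were higher. Without overlap 6 pathway genes were higher and none lower, against 16.8% and 16.2% of all genes. IL4-/- replicate 2 was the lower of its genotype for every tested gene except H2-Q2, H2-Q10, Calr, Mr1 and Hfe. Psmb8 had 19682 and 9941 normalized counts in IL4-/- and 20214 and 21341 in IL4-/-KO. Psmb10 had 5226 and 2574 in IL4-/- and 4601 and 4546 in IL4-/-KO, so its positive value rested on that replicate. The smallest p belonged to H2-Q10 (log2 fold change 1.56 ± 0.65), Psmb9 (0.77 ± 0.36) and the immunoproteasome subunit Psmb8 (0.57 ± 0.40), each with limma adjusted p = 1. In IL4-/- against WT 10 were higher and 12 lower, where 50.3% of all genes were higher. Without overlap 3 were higher and 1 lower, against 14.7% and 14.6% of all genes. In IL4-/-KO against KO 9 were higher and 13 lower, where 46.5% of all genes were higher. Without overlap 4 were higher and 10 lower, against 22.8% and 23.3% of all genes. Again none passed the threshold in either comparison. H2-Q4 had 1246 and 593 normalized counts in IL4-/-, for a log2 fold change of 1.53 ± 0.58 against WT. All its values in the shallower library set (177 to 562) lay below all those in the deeper set (593 to 1246), so genotype and library set cannot be told apart for this gene. Rfxap, a subunit of the RFX complex at MHC promoters, had -0.58 ± 0.31 and Lnpep, which trims peptides in endosomes, 1.05 ± 0.64. In IL4-/-KO against KO, Lnpep had 1.58 ± 0.64, Psmb10 -0.73 ± 0.36 and the chaperone gene Canx 0.59 ± 0.35.

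Of 16 interferon regulators, all were tested and none passed limma in any of the comparisons. In KO against WT 5 were higher and 11 lower, with a median of -0.22, against -0.07 over all genes tested. Without overlap 3 were higher and 3 lower, against 17.5% and 20.1% of all genes. The lower values of Jak1, Jak2 and Irf2 came from WT replicate 2. In WT replicates 1 and 2 Jak1 had 12233 and 40377 normalized counts, Jak2 2040 and 8678 and Irf2 1574 and 3895. Their KO replicates had means of 14855 and 11921, 4101 and 2246, and 2184 and 1734. Ifngr2, a chain of the interferon gamma receptor, had 3109 and 2044 normalized counts in the WT pair and 617 and 1488 in KO first libraries, with at most 1911 in their repeats. It had 1739 and 2337 in IL4-/- and 567 and 986 in IL4-/-KO. Its log2 fold change was -1.44 ± 0.59 where Il4 was intact and -1.43 ± 0.59 where it was not, and over both -1.44 ± 0.42 (limma adjusted p = 0.394). Irf8 had 1.48 ± 0.64 in KO against WT. Its normalized counts were 527 and 2354 in WT, 3617 and 1869 in KO first libraries and 3030 and 3936 in their repeats. The first library of KO replicate 2 thus lay below WT replicate 2. Stat2, a transducer of type I interferon signals, had -0.85 ± 0.37 in KO against WT and -0.83 ± 0.37 on the Il4-deficient background.

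Ifng, the cytokine that raises class I expression in many cells, had 3733 and 9012 normalized counts in the WT pair. In KO it had 39579 and 30000 in the libraries of replicate 1 and 5982 and 4437 in those of replicate 2, so the 2 KO replicates lay on either side of the upper WT value. It had 4129 and 4429 in IL4-/- and 10903 and 6971 in IL4-/-KO (log2 fold change 1.03 ± 0.82). In IL4-/- against WT the regulators with the smallest p were Irf9 (-0.46 ± 0.31), Irf7 (-0.53 ± 0.38) and Jak2 (0.67 ± 0.66). In IL4-/-KO against KO they were Socs1, an inhibitor of JAK signalling (-1.26 ± 0.42), Irf1, an activator of class I and Tap1 promoters (-0.85 ± 0.36), and Jak1 (1.01 ± 0.54). Irf1 had 18726 and 9657 in KO first libraries, 20309 and 11861 in their repeats and 7065 to 9426 in the other genotypes, so that KO was highest.

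**Figure D4:**
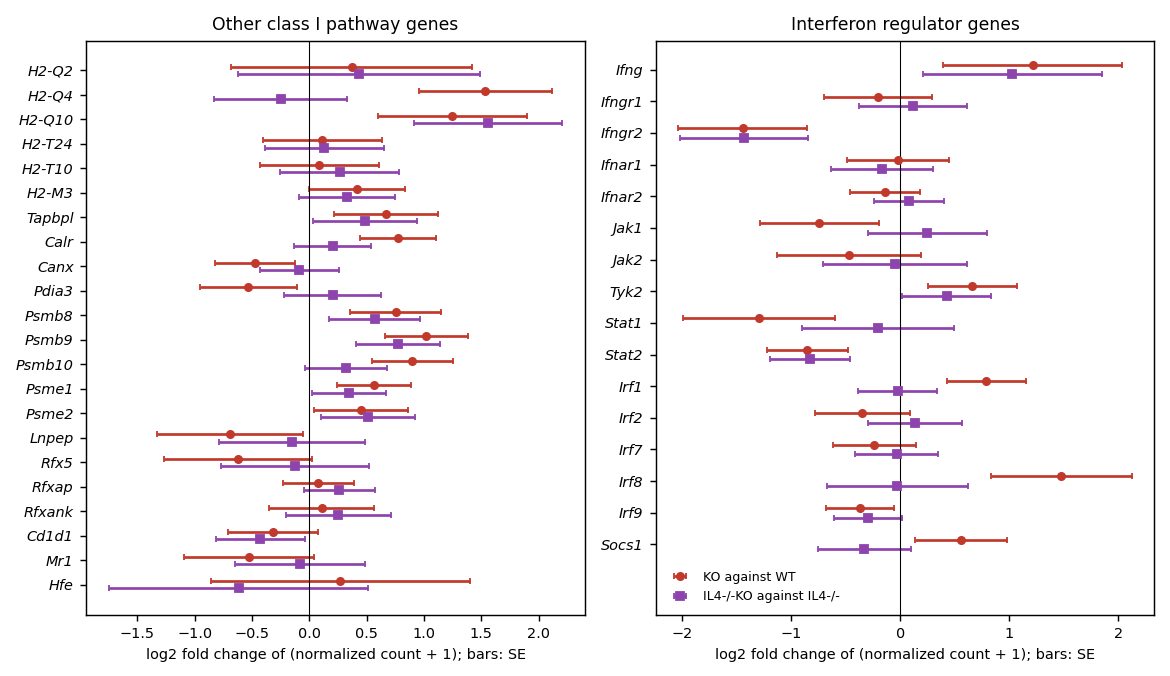
Log2 fold change and its SE for the tested genes of the wider class I pathway (left) and of the interferon regulators (right), in KO against WT (circles) and IL4-/-KO against IL4-/- (squares). None passed the adjusted threshold. The immunoproteasome genes Psmb8, Psmb9 and Psmb10 are positive in both comparisons, and Ifngr2 and Stat2 are negative in both. On the Il4-deficient background Psmb10 overlaps, with 5226 and 2574 normalized counts in IL4-/- and 4601 and 4546 in IL4-/-KO.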

How the data were processed

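RNA was amplified with SMART-Seq v4 without molecular identifiers, per the labels' protocols. The authors deposited one table of normalized counts, a signal in which each library's counts are divided by a size factor. bcl2fastq 2.18.0, STAR, DESeq2 and the mm10 build are named, per the submitters' processing notes. The counter, annotation and use of strand are not given in the sources used here. Whole reads were recovered from the steps of the values (100% within 0.001 reads), and 1 read was worth 0.644 to 1.47 normalized counts. Of 17370 rows, 7 without a gene name were left out (0.0029% to 0.0205% of reads).

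The KO libraries of one replicate were averaged and counted once. A gene was tested if 2 or more of the 8 replicates reached 10 normalized counts, which held for 14473, and values were analysed on log2(value + 1), a scale that understates changes of low genes. limma 3.58.1 in R 4.3.3 fitted all 4 genotypes, with 4 residual degrees of freedom and Benjamini-Hochberg adjustment over all genes tested. On recovered reads, edgeR 4.0.16 and DESeq2 1.42.0 served as alternatives, beside another pseudocount, no filter, TMM scaling, either KO library set alone, leaving out single replicates and a replicate block. The first library of KO replicate 2 in place of its mean was an alternative chosen after seeing the data. Members and gene lists were chosen with earlier results of these data known. All members are named. Of each gene list the 3 genes with the smallest p per comparison are named, besides a few given for their level. Like genes were the 5 with the highest correlation to the members' mean.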

Additional observations from a re-analysis of the deposited data

How the results depend on the processing

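With 2 replicates per genotype the direction of small differences rested on single samples. Leaving out each replicate in turn, the log2 fold changes that changed sign had these ranges. In KO against WT they were -0.49 to 0.60 for B2m, -0.73 to 0.93 for Nlrc5 and -1.02 to 0.037 for Erap1. In IL4-/-KO against IL4-/- they were -0.16 to 0.88 for B2m, -0.12 to 0.44 for H2-K1, -0.034 to 0.42 for H2-D1, -0.066 to 0.47 for H2-T23, -0.45 to 0.46 for H2-Q7, -0.078 to 0.40 for Tap2, -0.089 to 0.023 for Tapbp and -0.58 to 0.18 for Nlrc5. In IL4-/- against WT they were -0.36 to 0.68 for B2m, -0.19 to 0.38 for H2-K1, -0.25 to 0.47 for Tap1, -0.34 to 0.55 for Tap2, -0.17 to 1.5 for Nlrc5 and -0.15 to 0.45 for Erap1. In IL4-/-KO against KO they were -0.079 to 1.01 for B2m and -0.013 to 0.74 for Nlrc5. For Tgfbr2 deletion over both backgrounds they were -0.064 to 0.48 for B2m, -0.47 to 0.37 for Nlrc5 and -0.32 to 0.21 for Erap1. For Il4 deficiency over both Tgfbr2 states they were -0.26 to 0.034 for H2-T23, -0.13 to 0.32 for H2-Q7, -0.35 to 0.0083 for Tap1 and -0.42 to 0.025 for Tap2. For the interaction they were -0.24 to 0.85 for B2m and -1.13 to 0.53 for Nlrc5. Each such fit left a genotype with 1 sample, which limma assumes to vary like the others. With the KO repeats alone, B2m in KO against WT was -0.33 and H2-Q7 for Il4 deficiency -0.016. With the first KO libraries alone, H2-T23 for Il4 deficiency was 0.022 and Erap1 for Tgfbr2 deletion 0.031, and with the first library of KO replicate 2 only, the latter was 0.0090. Nlrc5 in KO against WT was -0.11 by edgeR and -0.10 by DESeq2. DESeq2 called 1 member, Tapbp, in IL4-/-KO against KO, where limma called 0. The cause of these differences was not tested. Limma called 1 of all genes in KO against WT, edgeR 0 and DESeq2 527.

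Replicates of equal number are linked in the labels by that number only. The correlation of their deviations was -0.36 to -0.20 for pairs with WT. It was 0.19 to 0.24 for pairs among the other genotypes. These values cannot show whether a batch was shared. With a replicate block, 0 genes passed in KO against WT and 1442 in place of 1749 had an unadjusted p under 0.05, members among them 2 in place of 3. The block changed no adjusted call of a member. The adjusted p ranged over the alternatives from 0.0606 to 0.849 for H2-T23 and from 0.059 to 0.859 for H2-Q7. Depth did not limit the members, at 1383 normalized counts or more.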
